A study of Mus musculus with 5 samples.

Results

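The subunits of the condensin complexes and the SMC subunits of cohesin were examined in RNA-seq of neonatal mouse hearts. They are 10 genes, taken by symbol from the 49671 genes in the deposited counts, and all 10 were among the 14880 genes that had at least 10 counts in at least 2 pools. Condensin accounts for 8 of them: the SMC pair Smc2 and Smc4, shared by both condensins, the condensin I subunits Ncapd2, Ncapg and Ncaph, and the condensin II subunits Ncapd3, Ncapg2 and Ncaph2. Cohesin accounts for the other 2, Smc1a and Smc3, whose products pair in the cohesin ring. The question put to these genes was whether condensin I and II differed between CharmeWT and CharmeKO hearts in the same way as the constitutive cohesin subunits did.

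The study took hearts of littermates on postnatal day 2 from C57BL6/J mice. CharmeKO animals carry a PolyA signal inserted into the Charme locus, which encodes a muscle long noncoding RNA, and CharmeWT animals carry the locus without it. The 5 libraries came from 3 CharmeWT pools of 9 hearts each and 2 CharmeKO pools of 3 hearts each, so that hearts per pool and genotype cannot be told apart. A pool is the replicate throughout, and every p-value measures the spread between pools. These are whole hearts, in which fewer cells of a type and less RNA per cell cannot be told apart.

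Condensin and cohesin are ring-shaped complexes that fold DNA into loops, each built on a pair of SMC ATPases closed by a kleisin subunit. Condensin II works in the nucleus, whereas condensin I reaches the chromosomes when the nuclear envelope breaks down, and together they compact chromosomes for mitosis. Cohesin holds sister chromatids together after replication and also shapes chromatin loops in cells that do not divide. Mouse cardiomyocytes still divide around birth and most leave the cell cycle in the first weeks of life.

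Between 16721055 and 21646378 fragments were counted on genes per pool, of which the 10 subunits held 10450, 8494 and 8974 in CharmeWT pools 1 to 3, and 13280 and 14589 in CharmeKO pools 1 and 2. Charme itself was at 39.3, 10.4 and 14 CPM in the CharmeWT pools and at 4.04 and 3.54 CPM in the CharmeKO pools. Cardiomyocyte markers summed to between 40930 and 53880 CPM in all 5 pools, which fits the labelled tissue, with 0 of 8 called by edgeR's quasi-likelihood test (2 at an unadjusted p under 0.05, 1 called higher with the likelihood ratio form, and 2 higher and 1 lower with DESeq2). Both CharmeKO pools stood apart in other ways. Salivary gland markers, of which 7 of 10 were tested and 6 were called higher, summed to 24910 CPM in CharmeKO pool 2 and 330.8 CPM in pool 1, against 0.5094 to 3.885 CPM in CharmeWT pools, where Bpifa2, Smgc and Prol1 had no count. In CharmeKO pool 1 the deviation of a gene from the CharmeWT mean fell with the GC content of its transcript (Spearman correlation over genes -0.523, against -0.06 in CharmeKO pool 2 and -0.155 to 0.273 in CharmeWT pools). The CharmeWT pools had trends of their own: with gene length the correlation was -0.229, -0.059 and 0.315 in CharmeWT pools 1 to 3. In CharmeKO pools 1 and 2 it was -0.043 and -0.2. Erythroid markers, with 3 of 10 tested called higher, summed to 2313 and 1635 CPM in CharmeKO pools and 885.3 to 1272 CPM in CharmeWT pools. Thymus and T cell markers, of which 2 of 12 were tested, stayed between 0.9918 and 3.541 CPM, with Rag2 at 0. Endothelial markers (761.2 to 1005 CPM), fibroblast markers (2488 to 3599 CPM) and macrophage markers (78.05 to 153.7 CPM) had 0, 0 and 1 gene called by edgeR's quasi-likelihood test (3, 1 and 1 at an unadjusted p under 0.05, and 0, 1 and 1 called with DESeq2 as with the likelihood ratio form). The part of these differences in the results was not tested. Values without CharmeKO pool 1 or 2 are given for the subunits and for the medians of lists of related genes. They are not given for each gene named from those lists. Such a fit has a single CharmeKO library, which is assumed to vary like the CharmeWT pools, and its calls are to be read against the share of all genes it called: 4.33% without CharmeKO pool 1 (3.06% higher) and 31.7% without pool 2 (16.1% higher).

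In CharmeKO hearts 3 of the 8 condensin genes were called higher: Ncapg, Smc2 and Smc4. A gene was called when the adjusted p of edgeR's quasi-likelihood test was under 0.1 and its mean level reached 1 FPKM in at least 1 genotype. Over all genes tested 2.05% were called, 1.53% higher and 0.524% lower in CharmeKO. Of the 2 cohesin SMC genes 0 were called by this test, with 1 (Smc1a) at an unadjusted p under 0.05, 0 called with edgeR's likelihood ratio form and 1 (Smc1a) with DESeq2. No condensin gene was called lower either, by any of these 3 tests, and the unadjusted p was under 0.05 for 5 of the 8 condensin genes, all of them higher. The log2 fold change, CharmeKO over CharmeWT, was above 0 for all 8 condensin genes and both cohesin genes, with medians of 1.0 and 0.55 beside 0.02 over all genes tested. Both CharmeKO pools lay above every CharmeWT pool for 7 of 8 condensin genes and for 0 of 2 cohesin genes, beside 17.8% of all genes tested.

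**Figure D1:**
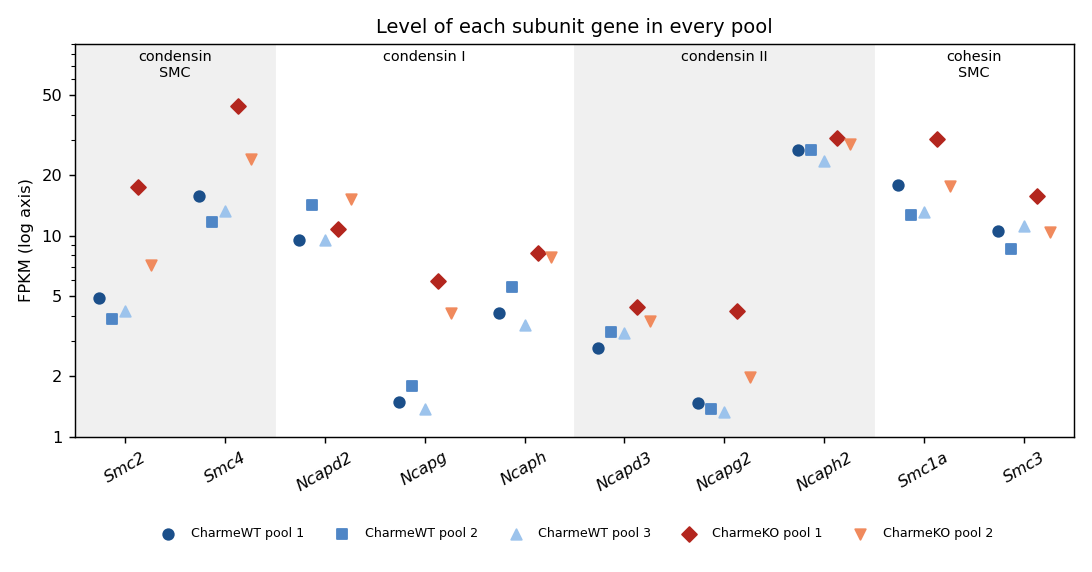
Level of each of the 10 subunits in FPKM, on a log axis, with 1 point per pool (blue, CharmeWT pools 1 to 3, and red and orange, CharmeKO pools 1 and 2) and bands that mark the complexes. The CharmeKO points of Smc2, Smc4 and Ncapg lie above all CharmeWT points, while those of Ncapd2, Smc1a and Smc3 overlap them.

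Promoter sequences of members are set out first, whether or not their levels differed between genotypes. Mitotic genes are often controlled through a CHR element (TTTGAA) close to the start site and through CCAAT boxes, and genes of DNA replication through E2F sites, searched here as TTTGGCGC, TTTCGCGC and TTTCCCGC. In the 300 bases around the start of 32851 RefSeq promoters (GRCm38.p6), either strand, TTTGAA was found in 17.9%, CCAAT in 37.4%, any of the E2F letters in 1.84%, and TTTGAA with CCAAT in 6.95%. RefSeq windows were found for 9 of the 10 genes, and Smc4 was not among them. The 150 bases before the RefSeq start site are shown, 5′ to 3′ along the gene's own strand with searched letters in capitals on either strand, for the called genes Ncapg and Smc2, for Ncapg2 and Ncapd2, whose windows also hold TTTGAA, and for the cohesin pair.
Ncapg, chr5:45669775-45669924, strand plus: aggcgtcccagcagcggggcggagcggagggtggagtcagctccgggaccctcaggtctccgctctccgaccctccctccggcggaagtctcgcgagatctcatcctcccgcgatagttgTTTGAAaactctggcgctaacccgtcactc
Smc2, chr4:52439071-52439220, strand plus: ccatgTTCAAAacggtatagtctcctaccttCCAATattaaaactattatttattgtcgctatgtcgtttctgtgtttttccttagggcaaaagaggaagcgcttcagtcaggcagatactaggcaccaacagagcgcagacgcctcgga
Ncapg2, chr12:116405286-116405435, strand plus: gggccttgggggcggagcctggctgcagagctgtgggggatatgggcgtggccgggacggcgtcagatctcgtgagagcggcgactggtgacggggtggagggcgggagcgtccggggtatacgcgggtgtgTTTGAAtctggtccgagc
Ncapd2, chr6:125191587-125191736, strand minus: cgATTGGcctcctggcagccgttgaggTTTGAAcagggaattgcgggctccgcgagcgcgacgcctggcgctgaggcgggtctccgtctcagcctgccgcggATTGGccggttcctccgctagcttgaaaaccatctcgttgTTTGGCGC
Smc1a, chrX:152016278-152016427, strand plus: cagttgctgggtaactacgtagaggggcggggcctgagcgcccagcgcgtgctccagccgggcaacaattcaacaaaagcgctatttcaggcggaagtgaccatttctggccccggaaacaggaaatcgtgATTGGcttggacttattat
Smc3, chr19:53600246-53600395, strand plus: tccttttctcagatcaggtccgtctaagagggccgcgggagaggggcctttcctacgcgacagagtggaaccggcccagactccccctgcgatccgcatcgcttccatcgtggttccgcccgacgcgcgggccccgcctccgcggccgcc

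Ncapg had TTTGAA starting 30 bases before the start site and Ncapg2 had it 18 bases before. In Smc2 its reverse complement, printed TTCAAA, lay 145 bases before the start and again 27 bases after it, with CCAAT 119 bases before. Ncapd2 held every kind of letters searched, TTTGAA at -123, CCAAT at -177, -148 and -48 and TTTGGCGC at -8. Ncapg, which also held CCAAT at -176 and TTTCCCGC at 32, had every kind as well, and Ncapg2 held TTTCCCGC at -249 and 1. Smc1a held CCAAT at -19 and TTTCCCGC at 38. None of the letters were found for Smc3, Ncaph or Ncaph2, nor in the first of the 2 windows of Ncapd3, whose second window held TTTGAA at -249. A match describes these letters only.

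Smc2 (ENSMUSG00000028312, chr4:52439243-52488260, plus strand, GRCm38) and Smc4 (ENSMUSG00000034349, chr3:69004738-69034623, plus strand) encode the ATPase pair of both condensins. Smc2 was at 4.88, 3.85 and 4.24 FPKM in CharmeWT pools 1 to 3, and at 17.5 and 7.15 FPKM in CharmeKO pools 1 and 2. FPKM are fragments per kilobase of exon at a common library size, scaled by TMM, so that levels of different genes can be set side by side. Smc4 was at 15.7, 11.7 and 13.3 FPKM in CharmeWT and at 44.1 and 24.3 FPKM in CharmeKO. Neither gene overlapped between genotypes, and CharmeKO pool 1 was the highest pool for both. Smc2 rose 2.85-fold (log2 fold change 1.51, standard error (SE) 0.317, adjusted p = 0.0678 with edgeR, quasi-likelihood, Benjamini-Hochberg over 14880 genes). Smc4 rose 2.52-fold (1.33, SE 0.25, adjusted p = 0.0495, same test). Without CharmeKO pool 1 the log2 fold changes were 0.72 for Smc2 and 0.84 for Smc4 (adjusted p = 0.0746 and 0.0268 with edgeR), and without CharmeKO pool 2 they were 2.01 and 1.69 (0.000204 and 0.000366). The call of Smc2 was lost with total counts in place of TMM scaling (adjusted p = 0.122 with edgeR). The calls of both genes were lost without any single CharmeWT pool. The log2 fold changes were then 1.43 to 1.61 for Smc2 and 1.24 to 1.46 for Smc4 (adjusted p from 0.144 to 0.333 and from 0.116 to 0.289, edgeR). Without CharmeWT pools 1 to 3 these fits called 0.0137%, 1.27% and 0% of all genes tested. The ratio of Smc2 to Smc4 counts, chosen after the values were seen and not tested, was 0.327, 0.347 and 0.336 in CharmeWT and 0.418 and 0.31 in CharmeKO, on both sides of the CharmeWT range.

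Condensin I showed the largest and one of the smallest differences among the 10 genes. Ncapg (ENSMUSG00000015880, chr5:45669919-45700546, plus strand), a HEAT-repeat subunit that binds DNA, was at 1.49, 1.79 and 1.38 FPKM in CharmeWT and at 5.99 and 4.11 FPKM in CharmeKO. Both CharmeKO pools were well above the CharmeWT range. Ncapg rose 3.24-fold (log2 fold change 1.70, SE 0.234, adjusted p = 0.0336, edgeR's quasi-likelihood test) and ranked 13 among the 14880 genes by p. It was called without CharmeWT pool 2 (1.81, adjusted p = 0.0448), but not without CharmeWT pool 1 (1.67, 0.127) or pool 3 (1.62, 0.232), all with edgeR. Over all genes tested, the fits without CharmeWT pools 1 and 3 called 2 and 0. With a single CharmeKO library the values were 1.41 without pool 1 (adjusted p = 0.00261, edgeR) and 1.94 without pool 2 (0.00043). Part of the Ncapg exons, 13.4% of their bases, overlaps Lcorl on the opposite strand, and the counting used strand.

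Ncaph (ENSMUSG00000034906, chr2:127103809-127133954, minus strand), the kleisin of condensin I, was at 4.13, 5.56 and 3.62 FPKM in CharmeWT and at 8.24 and 7.86 FPKM in CharmeKO. The groups did not overlap and the CharmeKO pools were close to each other, and the difference of 0.86 on the log2 scale (SE 0.224) missed the threshold (adjusted p = 0.117, edgeR's quasi-likelihood test). It passed by the likelihood ratio test of edgeR (0.0267) and by DESeq2 (0.0234). With a single CharmeKO library it was 0.83 without pool 1 (adjusted p = 0.0834, edgeR) and 0.89 without pool 2 (0.0219). Ncapd2 (ENSMUSG00000038252, chr6:125168007-125191701, minus strand), the HEAT-repeat partner, was at 9.52, 14.2 and 9.53 FPKM in CharmeWT and at 10.8 and 15.3 FPKM in CharmeKO. CharmeWT pool 2 lay above CharmeKO pool 1, and the log2 fold change of 0.24 (SE 0.235, adjusted p = 0.602, edgeR) became -0.04 without CharmeKO pool 2 and 0.47 without pool 1 (0.912 and 0.346). Of the Ncapd2 exon bases 3.78% are shared with the small RNA gene Scarna10 on the same strand.

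Among the condensin II subunits 0 of 3 were called by edgeR's quasi-likelihood test, with 1 (Ncapg2) at an unadjusted p under 0.05 and that same gene called by both other tests. Ncapg2 (ENSMUSG00000042029, chr12:116405402-116463731, plus strand), the condensin II counterpart of Ncapg, was at 1.48, 1.38 and 1.33 FPKM in CharmeWT and at 4.23 and 1.99 FPKM in CharmeKO. The groups did not overlap, but most of the difference was in CharmeKO pool 1. The log2 fold change was 1.15 (SE 0.293, adjusted p = 0.114, edgeR's quasi-likelihood test), and it was 0.51 without CharmeKO pool 1 (0.278) and 1.59 without pool 2 (0.000785).

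Ncapd3 (ENSMUSG00000035024, chr9:27030175-27095315, plus strand), a HEAT-repeat subunit, was at 2.78, 3.31 and 3.30 FPKM in CharmeWT and at 4.45 and 3.76 FPKM in CharmeKO. Ncaph2 (ENSMUSG00000008690, chr15:89355719-89372826, plus strand), the kleisin of condensin II, was at 26.7, 26.7 and 23.6 FPKM in CharmeWT and at 30.7 and 28.5 FPKM in CharmeKO. For both genes the CharmeKO pools lay just above the CharmeWT range. The log2 fold change was 0.39 for Ncapd3 (SE 0.197, adjusted p = 0.316, edgeR) and 0.21 for Ncaph2 (SE 0.166, adjusted p = 0.519, edgeR). Without CharmeKO pool 1 they were 0.27 and 0.15 (adjusted p = 0.597 and 0.753, edgeR), and without CharmeKO pool 2 they were 0.50 and 0.25 (0.0873 and 0.282), where Ncapd3 passed the threshold. Exons of Ncaph2 overlap Tymp and Sco2 on the opposite strand over 12.7% and 19.7% of their bases.

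The medians of the log2 fold change were 1.42 for the SMC pair, 0.86 for condensin I and 0.39 for condensin II, with 2 of 2, 1 of 3 and 0 of 3 called. Without CharmeKO pool 1 these medians were 0.78, 0.83 and 0.27, and without CharmeKO pool 2 they were 1.85, 0.89 and 0.50. The difference between condensin I and condensin II was not tested. Set side by side within a pool, the ratio of Ncapg to Ncapg2 counts was 0.716, 0.922 and 0.737 in CharmeWT and 1.01 and 1.47 in CharmeKO. The kleisin ratio, Ncaph to Ncaph2, was 0.159, 0.214 and 0.157 in CharmeWT and 0.275 and 0.283 in CharmeKO. For these pairs both CharmeKO pools lay above the CharmeWT range, whereas Ncapd2 to Ncapd3 ran the other way on average and overlapped, at 2.72, 3.4 and 2.29 in CharmeWT and 1.93 and 3.23 in CharmeKO. These ratios were chosen after the values were seen and are a description.

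**Figure D2:**
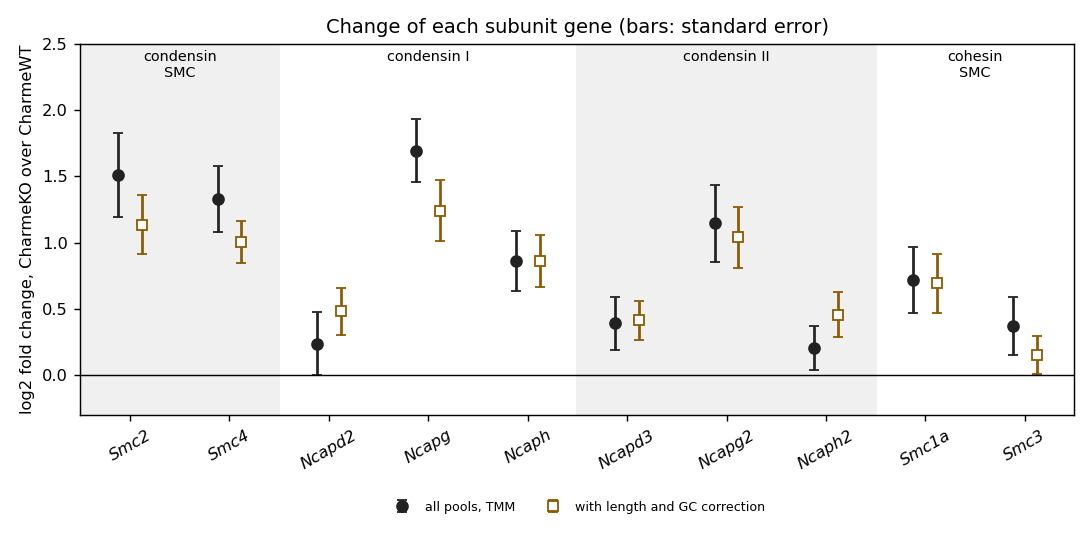
Log2 fold change of each subunit, CharmeKO over CharmeWT, with bars for the standard error, from all pools (filled circles) and after correction for length and GC (open squares). Ncapg, Smc2 and Smc4 have the largest uncorrected values, and the corrected values of all 10 genes are above 0.

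The cohesin subunits had differences within the range of the condensin genes. Smc1a (ENSMUSG00000041133, chrX:152016428-152062694, plus strand) was at 18.0, 12.7 and 13.2 FPKM in CharmeWT and at 30.5 and 17.8 FPKM in CharmeKO. Smc3 (ENSMUSG00000024974, chr19:53600398-53645833, plus strand), its partner in the ring, was at 10.6, 8.65 and 11.2 FPKM in CharmeWT and at 15.8 and 10.5 FPKM in CharmeKO. For both genes CharmeKO pool 1 was the highest of the 5 pools, and CharmeKO pool 2 lay within the CharmeWT range. The log2 fold change was 0.72 for Smc1a (SE 0.249, adjusted p = 0.191, edgeR's quasi-likelihood test) and 0.37 for Smc3 (SE 0.217, adjusted p = 0.376). With DESeq2 the adjusted p of Smc1a was 0.0937. Without CharmeKO pool 1 the log2 fold changes were 0.28 and 0.05 (adjusted p = 0.589 and 0.942 with edgeR), and without CharmeKO pool 2 they were 1.05 and 0.63 (0.00572 and 0.0323), both then called, in the fit that called 31.7% of all genes. A p that missed the threshold does not show that cohesin levels were equal between the genotypes.

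Condensin and cohesin were compared within each pool, where scaling between pools plays no part but trends on GC or length remain. The count ratio of Smc2 to Smc3 was 0.456, 0.44 and 0.375 in CharmeWT pools and 1.1 and 0.674 in CharmeKO pools. The ratio of Smc4 to Smc1a was 0.791, 0.83 and 0.911 in CharmeWT and 1.31 and 1.23 in CharmeKO. Both ratios were higher in both CharmeKO pools than in every CharmeWT pool. The difference on the log2 scale was 1.03 for Smc2 to Smc3 (SD 0.151 in CharmeWT and 0.499 in CharmeKO) and 0.59 for Smc4 to Smc1a (SD 0.103 and 0.06). The exact two-sided permutation test over pools gave p = 0.1 for each, also after adjustment over the 2 ratios, which is the smallest p that 3 pools against 2 allow. Without CharmeKO pool 1 the differences were 0.67 and 0.55, and without CharmeKO pool 2 they were 1.38 and 0.64, so that the size of the first depended on the pool. After correction for length and GC, with all pools, the differences were 0.93 and 0.32. Over all members the picture was less separated: the mean log2 CPM of the 8 condensin genes minus that of the 2 cohesin genes was -1.32, -0.85 and -1.24 in CharmeWT pools and -0.88 and -0.66 in CharmeKO pools, so that CharmeWT pool 2 lay above CharmeKO pool 1. Within cohesin the ratio of Smc3 to Smc1a was 0.566, 0.654 and 0.815 in CharmeWT and 0.498 and 0.568 in CharmeKO, with overlap.

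**Figure D3:**
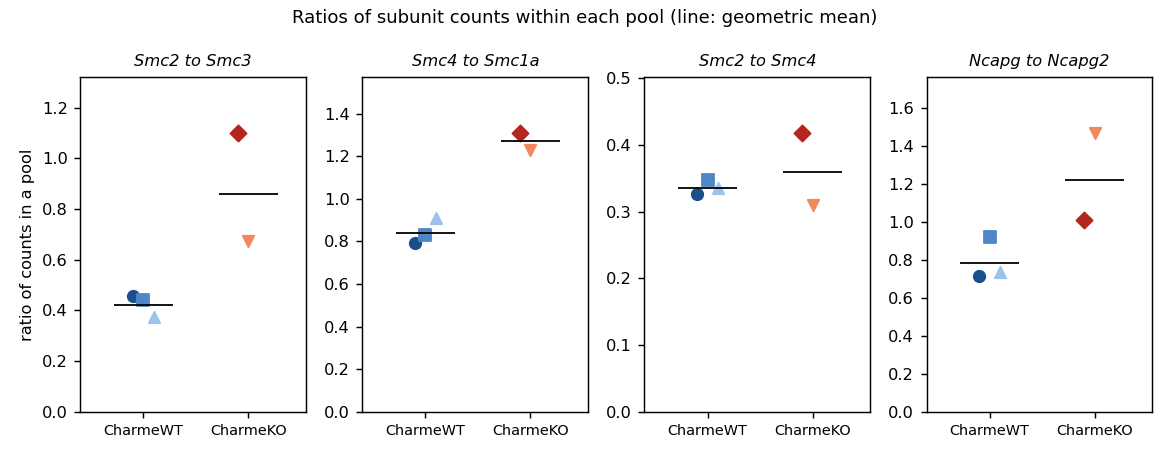
Count ratios within each pool, on linear axes from 0, for Smc2 to Smc3, Smc4 to Smc1a, Smc2 to Smc4 and Ncapg to Ncapg2, with 1 point per pool (circle, square and triangle for CharmeWT pools 1 to 3, diamond and inverted triangle for CharmeKO pools 1 and 2) and a line at the geometric mean. Both CharmeKO points lie above the 3 CharmeWT points in every panel but that of Smc2 to Smc4.

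By level, Ncaph2 was the most abundant of the 10 transcripts in CharmeWT hearts, at 25.7 ± 1.76 FPKM (SD, n = 3), and did not overlap the next. Smc1a, Smc4, Ncapd2 and Smc3 followed, between 14.6 ± 2.91 and 10.1 ± 1.32 FPKM (SD, n = 3), each overlapping its neighbour in this order. Ncaph and Smc2 lay near 4.43 and 4.33 FPKM and overlapped, then came Ncapd3 at 3.13 FPKM, apart from both sides, and finally Ncapg and Ncapg2 at 1.56 and 1.40 FPKM, which overlapped. The subunits that share a condensin were thus not at equal transcript levels: Ncaph2 exceeded Ncapg2, its partner in condensin II, in every pool. In CharmeKO hearts Smc4 moved from the third to the first place, at 34.2 ± 14.1 FPKM (SD, n = 2), and Smc2 from the seventh to the sixth. Neither place was reached in CharmeKO pool 2. There Smc4 (24.3 FPKM) lay above Smc1a (17.8 FPKM) but below Ncaph2 (28.5 FPKM), and Smc2 (7.15 FPKM) lay below Ncaph (7.86 FPKM). Ncapg moved from rank 9 to rank 8, above Ncapd3 in both CharmeKO pools (5.99 against 4.45 FPKM and 4.11 against 3.76 FPKM). With the length of the longest transcript in place of all exon bases the first 6 places in CharmeWT kept their order, while Smc2 came 8 and Ncapg 10. Ncapd3 and Smc2 were then close in CharmeWT, at 4.49 and 4.38 FPKM. In CharmeKO Smc4 came 1 and Ncapg 8 with this length too, but Smc2 came 7, below Ncaph (12.5 against 12.9 FPKM).

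The members differed in the GC content of their longest transcripts, from 34.8% for Ncapg to 55.7% for Ncaph2. The log2 fold change was highest in the members of lowest GC (Pearson -0.84 and Spearman -0.83 over 10 genes, given as a description, since the genes share the same 5 libraries). The correlation of the members with GC was -0.863 (Pearson) in CharmeKO pool 1 and -0.615 in pool 2. Correction of each pool for trends on gene length and GC lowered Ncapg from 1.70 to 1.24, Smc2 from 1.51 to 1.14 and Smc4 from 1.33 to 1.0 on the log2 scale, and all 3 stayed called (adjusted p = 0.0567, 0.0598 and 0.0402, edgeR). Ncaph and Ncapg2 were then called as well, at 0.86 and 1.04 (adjusted p = 0.0861 and 0.0811, edgeR), which made 5 of 8 condensin genes. Without the correction they were at 0.86 and 1.15. Over all genes tested 2.49% were called with the correction (1.82% higher), against 2.05% without it (1.53% higher). The cohesin genes Smc3 (42.3% GC) and Smc1a (46.9%) had 0.15 and 0.69 after correction (adjusted p = 0.619 and 0.181, edgeR). GC was 39.7% for Smc2 and 40.2% for Smc4. Among the corrected values the correlation with GC was -0.606 (Pearson), and the part of GC in the differences was not tested. The difference in the log2 ratio of Smc4 to Smc1a fell from 0.59 to 0.32 under this correction, and that of Smc2 to Smc3 from 1.03 to 0.93. The replicate number as a block together with the correction left 0 of 8 condensin genes called, beside 0.329% of all genes tested. The log2 fold changes were 0.95 for Smc4, 1.11 for Ncapg and 1.04 for Smc2 (adjusted p = 0.107, 0.161 and 0.168, edgeR).

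**Figure D4:**
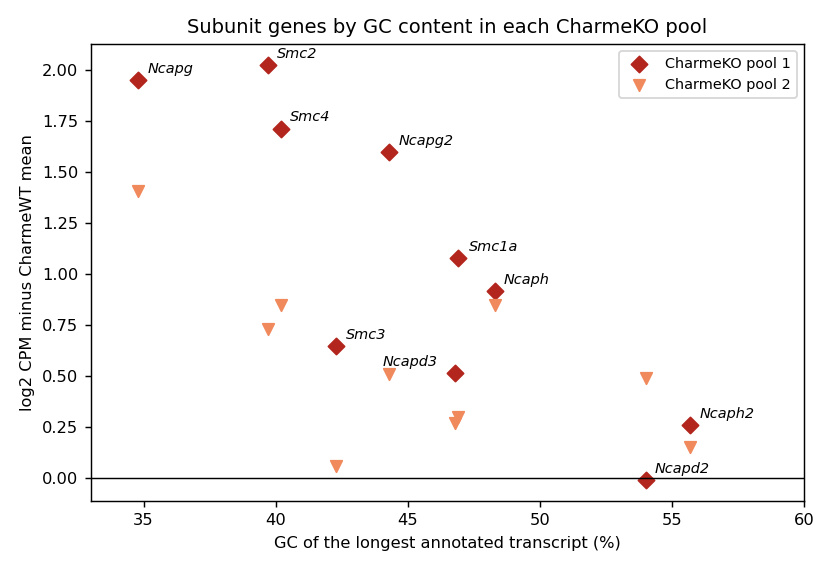
Log2 CPM of the 10 subunits in each CharmeKO pool minus the CharmeWT mean, against the GC content of the longest transcript in percent, with diamonds for CharmeKO pool 1 and inverted triangles for pool 2. Ncapg, Smc2 and Smc4 lie at the left with high values in pool 1 (1.95, 2.03 and 1.71), where Smc3 and Smc1a are at 0.65 and 1.08.

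The other genes of these pathways were described list by list. Among other cohesin subunits 5 of 7 were tested, and 0 were called (1 at an unadjusted p under 0.05, 0 with the likelihood ratio form and 1 with DESeq2), with a median log2 fold change of 0.34. That median was -0.17 without CharmeKO pool 1, with 0 called higher, and 0.83 without pool 2, with 3 called higher. Rad21, the cohesin kleisin, was at 41.6, 46.3 and 37.9 FPKM in CharmeWT and at 82.5 and 50.5 in CharmeKO, above the CharmeWT range, with a log2 fold change of 0.66 (adjusted p = 0.181, edgeR). Stag2, a cohesin subunit that binds the kleisin, had 0.44 (adjusted p = 0.438). The list of cohesin loading, release and boundary genes had 0 of 8 called (1 at an unadjusted p under 0.05, 0 by either other test) and a median of 0.16. That 1 gene was Mau2, chosen for naming after its values were seen, and it was lower at -0.43 (adjusted p = 0.251, edgeR). Both CharmeKO pools lay below every CharmeWT pool for Mau2, as for 2710 of the 14880 genes tested. Without CharmeKO pool 1 the median was -0.07, with 0 called higher, and without pool 2 it was 0.29, with 2 called higher and 1 lower. In it Ctcf, the protein at which cohesin loops stop, had -0.14 (adjusted p = 0.674, edgeR) and Wapl, which releases cohesin, had 0.12 (0.755).

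Among the genes that protect or resolve sister cohesion in dividing cells 4 of 8 were called higher, beside 1.53% of all genes tested. Both CharmeKO pools lay above every CharmeWT pool for 7 of 8, beside 17.8% of all genes tested, and the median was 1.27. The likelihood ratio form and DESeq2 each called 7 of 8 higher, beside 3.92% and 4.33% of all genes. Esco2, the acetyltransferase that locks cohesin onto sister chromatids, was at 1.30, 1.22 and 0.867 FPKM in CharmeWT and at 6.42 and 2.68 FPKM in CharmeKO, and rose by 2.0 on the log2 scale (adjusted p = 0.0423, edgeR). Sgo2a and Sgo1, the shugoshins that guard centromeric cohesin, rose by 1.31 and 1.29 (0.0404 and 0.0663), and the checkpoint kinase Bub1 by 1.68 (0.0689). Pttg1 (securin) and Plk1, the most abundant genes of the list, had 0.93 and 1.02 (0.154 and 0.144) and were not called.

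Among the 9 mitotic chromosome partners of condensin 6 were called higher, beside 1.53% of all genes tested, and the median was 1.35. The likelihood ratio form and DESeq2 also called 6 higher, beside 3.92% and 4.33% of all genes. Top2a, the topoisomerase that untangles chromosomes as condensin compacts them, was at 11.3, 11.8 and 7.79 FPKM in CharmeWT and at 44.1 and 20.04 FPKM in CharmeKO. Hmgb2, a chromatin protein of proliferating cells, was at 34.6, 32.3 and 27.5 FPKM in CharmeWT and at 89.5 and 55.7 FPKM in CharmeKO. For both genes the CharmeKO pools were above the CharmeWT range. They rose by 1.64 and 1.21 on the log2 scale (adjusted p = 0.0488 and 0.045, edgeR), and Cdk1, the kinase that activates condensin in mitosis, by 1.60 (0.039). Mki67, which coats mitotic chromosomes, rose by 1.64 (0.039). Kif4 and Birc5 were the other called genes. Aurkb, Incenp and Mcph1 were not called, at 0.58, 0.48 and 0.09 (adjusted p = 0.262, 0.354 and 0.872, edgeR). With a single CharmeKO library, the median of this list was 0.96 without pool 1 and 1.63 without pool 2. For the sister cohesion list the medians were 1.08 and 1.33.

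The SMC5/6 complex with Smchd1, the remaining SMC family, had 0 of 9 called (1 at an unadjusted p under 0.05, 0 by either other test) and a median of 0.34. Its most abundant genes, Nsmce1 and Nsmce4a, had 0.26 and 0.31 (adjusted p = 0.553 and 0.398, edgeR). Topoisomerases and HMGB proteins outside mitosis had 0 of 6 called (1 at an unadjusted p under 0.05, 0 with the likelihood ratio form and 1 with DESeq2) and a median of 0.05, with 0.61 for Hmgb1 and 0.20 for Hmgb3 (0.185 and 0.572). Top2b, the topoisomerase II of cells that do not divide, had -0.01 (0.987) and was chosen for naming after its values were seen. These lists were left at medians of -0.15 and -0.03 without CharmeKO pool 1, and of 0.58 and 0.22 without pool 2, where 7 genes of the SMC5/6 list were called higher and 1 lower, beside 16.1% of all genes called higher. With the length and GC correction the medians were 0.23 for other cohesin subunits, -0.05 for cohesin loading, release and boundary, and 0.03 for SMC5/6. They were -0.03 for topoisomerases and HMGB proteins outside mitosis, 1.07 for sister cohesion and 1.37 for mitotic partners. The differences between lists were not tested.

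**Figure D5:**
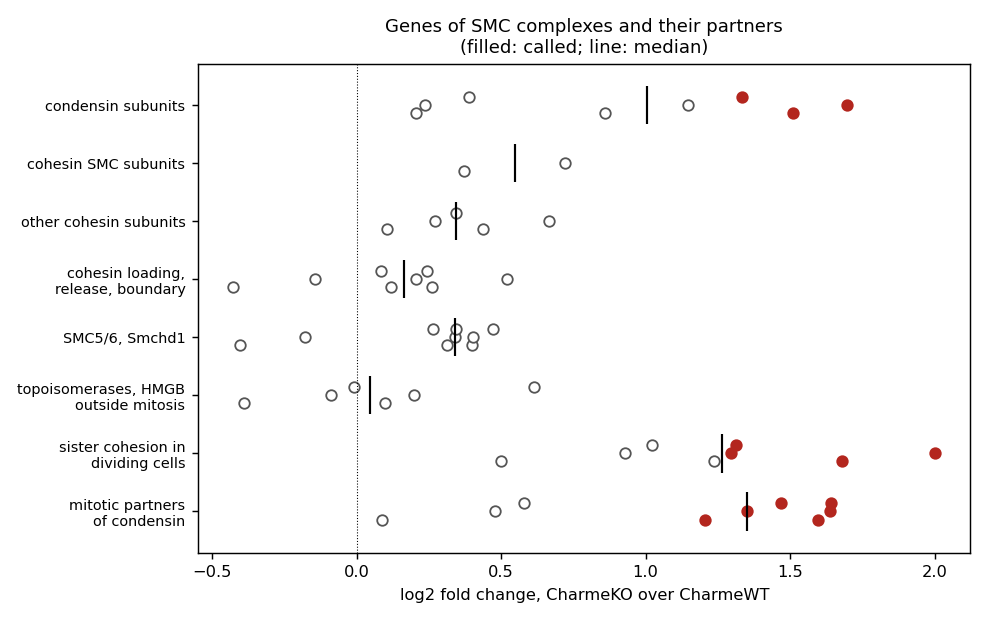
Log2 fold change of every tested gene of the condensin, cohesin and related lists, CharmeKO over CharmeWT, 1 point per gene (filled where called) with the median of each list as a line. Without correction for length and GC, the lists of sister cohesion and mitotic partners have medians of 1.27 and 1.35. Cohesin loading and nonmitotic topoisomerase genes have 0.16 and 0.05.

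Likeness of profile was measured as the Euclidean distance, over the 5 pools, between the centred log2 CPM of a gene and the mean centred profile of the members. Closest to the condensin profile were Gm6316 (0.134), Prdx4 (0.134), Arl6ip1 (0.143), Cenpc1 (0.156) and Nop56 (0.16). Cenpc1 encodes a centromere protein and Nop56 a nucleolar protein. Closest to the cohesin profile were Cacybp (0.0479), Psmc6 (0.0623), Ergic2 (0.0841), Gng2 (0.0849) and Eef1akmt2 (0.0854). Psmc6 encodes a proteasome ATPase. Of these 10 genes 3 were called, Prdx4, Arl6ip1 and Cenpc1 (adjusted p = 0.0849, 0.0633 and 0.0731, edgeR), all near the condensin profile. The genes were chosen by likeness over the same 5 pools, so where the calls fell follows from that choice.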

How the data were processed

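RNA of 5 pools of whole hearts was sequenced by the authors as paired-end polyA libraries. Reads trimmed to under 35 nucleotides were dropped, STAR aligned the rest to GRCm38, and fragments were assigned by strand to genes of Ensembl release 87. The deposited values used are these raw counts per gene, without normalization. A deposited FPKM table, written with decimal commas, was not used, and FPKM were computed from the counts with exon lengths of GENCODE M21 (23 tested genes had no length and were given 1 kb).

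Genes reaching 10 counts in 2 or more pools were TMM scaled and tested with edgeR 4.0.16 (glmQLFit with legacy=FALSE, glmQLFTest, R 4.3.3) on genotype, with Benjamini-Hochberg adjustment over all 14880. CPM use the same scaling. The length and GC correction used splines of 4 degrees of freedom per pool. Alternatives were DESeq2 1.42.0, the likelihood ratio test, the legacy and robust forms, other scalings and filters, a replicate block and each pool left out. The test was tried on simulated data. Fragments carry no molecular identifiers.

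The members and the gene lists were chosen with earlier results of these data known. Named were all members, Charme, the 2 most abundant and the called genes of each list up to 4, and the 5 genes most like each complex. Promoters were RefSeq windows on GRCm38.p6. Replicate numbers were not taken as pairs: only numbers 1 and 2 are shared, and no source ties a number to a litter.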

Additional observations from a re-analysis of the deposited data

How the results depend on the processing

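Every member had at least 193 counts in each pool, and the spread between pools rests on 3 CharmeWT and 2 CharmeKO pools. Leaving out single pools moved the numbers of calls most: from 0 to 4607 genes over all tested, from 0 to 6 of 8 condensin genes and from 0 to 2 of 2 cohesin genes. The count of 0 genes came without CharmeWT pool 3, from edgeR's quasi-likelihood test, with 1315 genes at an unadjusted p under 0.05. Without CharmeWT pools 1 to 3, 0, 1 and 0 condensin genes were called, beside 2, 187 and 0 genes over all tested (0.0137%, 1.27% and 0%). The largest numbers came from a fit with a single CharmeKO library, without CharmeKO pool 2. The condensin median ranged from 0.62 to 1.24 and the cohesin median from 0.17 to 0.84, the lowest values without CharmeKO pool 1. Ncapd2 alone among the members changed direction, ranging from -0.04 without CharmeKO pool 2 to 0.47 without pool 1. The cause was not tested.

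The likelihood ratio test called 933 genes and 5 condensin genes, and DESeq2 1122 genes, 5 condensin genes and 1 cohesin gene. At an adjusted p under 0.05, 111 genes and 2 condensin genes were called. The length and GC correction called 370 genes and 5 condensin genes. Total counts in place of TMM factors, chosen after seeing the data, gave 105 genes and 2 condensin genes and moved the median of all genes from 0.02 to -0.13. With the salivary gland markers left out, also chosen after seeing the data, 302 genes and 3 condensin genes were called.

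The replicate number as a block gave 210 genes and called Ncapg, Smc2 and Smc4, with medians of 0.89 for condensin and 0.52 for cohesin. For the ratios the block was the mean difference between same-numbered pools 1 and 2, which leaves out CharmeWT pool 3. These log2 ratio differences were 0.94 for Smc2 to Smc3 and 0.65 for Smc4 to Smc1a. Deviations of same-numbered pools correlated at 0.114 and 0.0576. The replicate block with the length and GC correction left 49 genes and 0 condensin genes called (edgeR's quasi-likelihood test, 1632 genes at an unadjusted p under 0.05). The legacy and robust forms, RLE and upper-quartile scaling, no filter, filterByExpr and no FPKM filter each called 3 condensin and 0 cohesin genes. The planned ratios and order from the deposited FPKM were not run, since that table's decimal commas kept it out of use.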
